A study of Homo sapiens with 24 samples.

Results

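The response of SW620 cells to Ocoxin was measured by mRNA sequencing in 6 of the 24 libraries of the series, 3 control libraries and 3 libraries of treated cells, which were chosen by the cell line and the treatment letter in their labels. SW620 is an established human colorectal adenocarcinoma line, labelled COAD, that was derived from a lymph node metastasis. All cells were grown in RPMI-1640 medium, the treated cells received Ocoxin diluted 700-fold in medium with 1% serum for 48 h, and only adherent cells were lysed. Ocoxin combines extracts of plants such as green tea and licorice with vitamins, minerals and amino acids, so the comparison cannot tell which ingredient moved a gene. Nothing in the labels says whether the 3 libraries of a group were separate cultures, and p-values therefore measure the spread between these libraries. In bulk RNA, fewer cells of one kind and less RNA per cell cannot be told apart.

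Total counts ranged from 31265452 to 34397801 in the control libraries and from 25160757 to 29670036 in the Ocoxin libraries, so that the treated libraries were all shallower. The filter on low counts left 17659 of 58051 genes, and the biological coefficient of variation among replicates was 6.3%. On the first principal component (28.7% of the variance) control replicate 3 lay at -4.11. That is nearer to Ocoxin replicate 1 (3.52) than to the other control libraries (-22.27 and -19.43). On the second component (23.7%) control replicate 3 and Ocoxin replicate 1 lay at opposite ends, at 28.32 and -22.3. The log2 CPM of control replicate 3 correlated at 0.9919 and 0.9924 with control replicates 1 and 2. With the Ocoxin libraries its correlation was 0.9908 to 0.9911. Because control replicate 3 stood apart from the other controls, the results below are also given without single libraries. Epithelial and intestinal genes were present, with 11836 to 17978 counts of VIL1 (villin), 10611 to 13362 counts of EPCAM and 5068 to 6552 counts of HNF4A, but KRT20 and CDX1, markers of differentiated colon epithelium, did not exceed 4 counts in any library. Among markers of other cell types, PTPRC (leukocytes) had at most 2 counts and KDR (endothelium) and COL1A2 (fibroblasts) had 0 counts, but other members were detected, with 6.18 to 9.88 CPM (counts scaled to the library total) of COL1A1 (fibroblasts), 2.22 to 4.11 CPM of VWF (endothelium) and 18.5 to 28 CPM of KRT5 (basal epithelium). The leukocyte list summed to 85.6 to 103 CPM and the prostate list to 141 to 151 CPM.

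Ocoxin altered 451 genes (edgeR's quasi-likelihood test, Benjamini-Hochberg adjusted p under 0.05), 2.55% of the genes tested. Of these, 259 rose (1.47% of the genes tested) and 192 fell (1.09%), so that 57.4% of the altered genes rose (95% Wilson interval 52.8 to 61.9, which covers the number of genes only). The genes that rose did so from a low level and by more, with a median of 18.6 CPM and a median fold of 1.39, whereas those that fell had a median of 107 CPM and a median fold of 0.841. Among the altered genes 31 rose and 2 fell by at least 2-fold. An unadjusted edgeR p under 0.05 was reached by 2815 of the 17659 tested genes. That share is the background for the counts of such list members given below. The groups did not overlap for any of the 451 altered genes, nor for 20.6% of all tested genes, so the lack of overlap in an altered gene adds nothing to its call. The split between rises and falls depended on gene length: among the 3533 genes of exonic length up to 1801 bases 42 rose and 5 fell, and among the 3532 genes of at least 7271 bases 35 rose and 68 fell. After removal of a trend with length 48.0% of the altered genes rose, and after removal of a trend with length and GC content 38.6% did. The test called 140 genes without control replicate 1, 138 with control replicate 2 left out, 121 with Ocoxin replicate 2 left out and 782 with control replicate 3 left out.

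**Figure D1:**
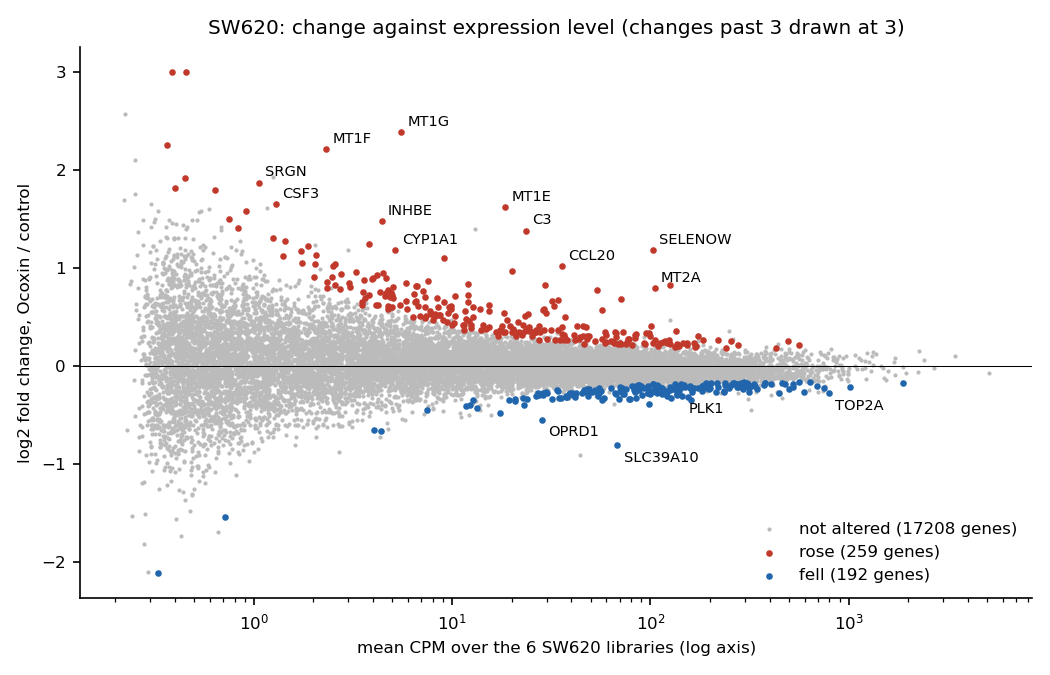
Log2 fold change of Ocoxin over control against the mean CPM of each tested gene in SW620, with altered genes in red (259 rose) and blue (192 fell). The largest rises are in genes of low CPM, while the altered genes that fell crowd just below 0 at high CPM, with SLC39A10 and OPRD1 among the few that lie lower.

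Zinc handling gave some of the largest changes. Metallothioneins are small cysteine-rich proteins that bind zinc and copper, and in human cells their genes are switched on when free zinc rises, through the zinc-sensing transcription factor MTF1, which binds metal response elements (MREs) in their promoters. The same factor is known to induce SLC30A1, which exports zinc across the plasma membrane, and zinc is known to lower the mRNA of the importer SLC39A10. The MRE core was searched as TGCACNC and TGCGCNC on both strands of RefSeq promoters (GRCh38.p14, 250 bases before to 50 bases after the start of each gene). Of the 6 altered metallothioneins, MT2A and MT1X had an entry, with 8 and 4 matches, where 38.5% of the 11685 promoters of tested genes held at least 1 match and 12.1% held at least 2. The 150 bases before the start of these genes and of both altered zinc transporters are given with matches in capitals. They show where the searched letters lie and where they are absent.
MT2A, chr16:56608434-56608583, plus strand: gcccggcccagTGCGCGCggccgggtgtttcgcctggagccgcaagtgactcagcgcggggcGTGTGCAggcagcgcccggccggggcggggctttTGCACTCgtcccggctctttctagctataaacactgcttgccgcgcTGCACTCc
MT1X, chr16:56682320-56682469, plus strand: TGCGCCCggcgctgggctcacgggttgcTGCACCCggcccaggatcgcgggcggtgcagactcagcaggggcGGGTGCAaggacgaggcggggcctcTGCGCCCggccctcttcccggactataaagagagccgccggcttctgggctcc
SLC30A1, chr1:211579162-211579311, minus strand: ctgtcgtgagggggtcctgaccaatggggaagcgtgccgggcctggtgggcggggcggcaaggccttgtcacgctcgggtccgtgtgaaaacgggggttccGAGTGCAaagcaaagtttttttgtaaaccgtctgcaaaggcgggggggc
SLC39A10, chr2:195656808-195656957, plus strand: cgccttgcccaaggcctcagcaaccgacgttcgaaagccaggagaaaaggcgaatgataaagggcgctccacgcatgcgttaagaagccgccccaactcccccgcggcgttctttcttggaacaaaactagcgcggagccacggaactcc
These windows hold 4 matches for MT2A, 4 for MT1X, 1 for SLC30A1 (first base 49 bases before the start) and 0 for SLC39A10. Over the full 300 bases SLC30A1 held 2 matches and SLC39A10 held 0. Of the 18 such full promoters of zinc transporters and MTF1 that were not altered, 6 held a match (33.3%). Among them 2 held at least 2, SLC30A2 (3 matches, log2 fold change 2.57) and SLC30A3 (2 matches, 0.0). A match is only a match of letters and was not tested as a binding site.

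Of 12 metallothionein genes, 8 passed the filter, 6 of them rose and 0 fell, with a median log2 fold change of 1.26 over the 8, against -0.005 over all tested genes. Together the 12 genes gave 101, 103 and 111 CPM in the control libraries and 193, 203 and 201 CPM in the Ocoxin libraries, a sum that does not depend on how reads were shared between these near-identical genes. The family lies in 1 cluster on chromosome 16. MT2A (hg38, 56608199 to 56609497), the most abundant member, was at 74.5, 76.2 and 80.4 CPM in control and at 129.9, 136 and 134 CPM with Ocoxin, a log2 fold change of 0.79 ± 0.0518 (SE; edgeR adjusted p = 3.82e-09). MT1E (56625475 to 56627112) rose 3.07-fold, from 8.23, 8.82 and 10.2 CPM to 27.4, 28.5 and 27.9 CPM (edgeR adjusted p = 2.3e-10). The largest fold of the family belonged to MT1G (56666731 to 56668065), at 1.62, 1.29 and 2.42 CPM in control and 7.48, 10.5 and 10.1 CPM with Ocoxin, 5.25-fold (edgeR adjusted p = 1.78e-06). MT1F (56657694 to 56660698) rose 4.62-fold from 0.823 ± 0.202 CPM (SD, n = 3) to 3.81 ± 0.158 CPM (edgeR adjusted p = 3.85e-06). MT1X (56682424 to 56684196) rose 2.14-fold, from 5.8 ± 0.117 to 12.4 ± 0.917 CPM (edgeR adjusted p = 3.21e-06). Each of these 5 genes stayed past the threshold in all 6 fits that left out 1 library. MT1M, near 1 CPM, rose 2.67-fold (edgeR adjusted p = 0.0277) but passed the threshold in 0 of those 6 fits, with adjusted p between 0.0501 and 0.112. MT1A, with 262 to 322 counts a library, had a log2 fold change of 0.11 (edgeR adjusted p = 0.683) and MT3 of 0.41 (0.647). MT1H was below the filter, at 0 counts in each control library and at 6, 2 and 4 counts with Ocoxin.

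The transporters did not move as a family. Among 22 tested genes of zinc transporters and MTF1, 1 rose and 1 fell, and the median log2 fold change was 0.01. The largest log2 fold change of the list, 2.57 for SLC30A2, did not pass the threshold. SLC30A1 (chromosome 1, 211571568 to 211578742) was at 88.7, 85.9 and 83.7 CPM in control and 109, 112 and 121 CPM with Ocoxin, 1.33-fold higher (edgeR adjusted p = 0.000175). SLC39A10 (chromosome 2, 195575977 to 195737702) was at 87.7, 84.2 and 88.3 CPM in control and at 49.5, 46.9 and 52.3 CPM with Ocoxin, a fold of 0.572 (log2 fold change -0.81 ± 0.0579, edgeR adjusted p = 1.69e-08). It had the smallest adjusted p of the 192 genes that fell and the largest decrease of those with a mean of at least 1 CPM. Both were altered in all 6 fits that left out 1 library.

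**Figure D2:**
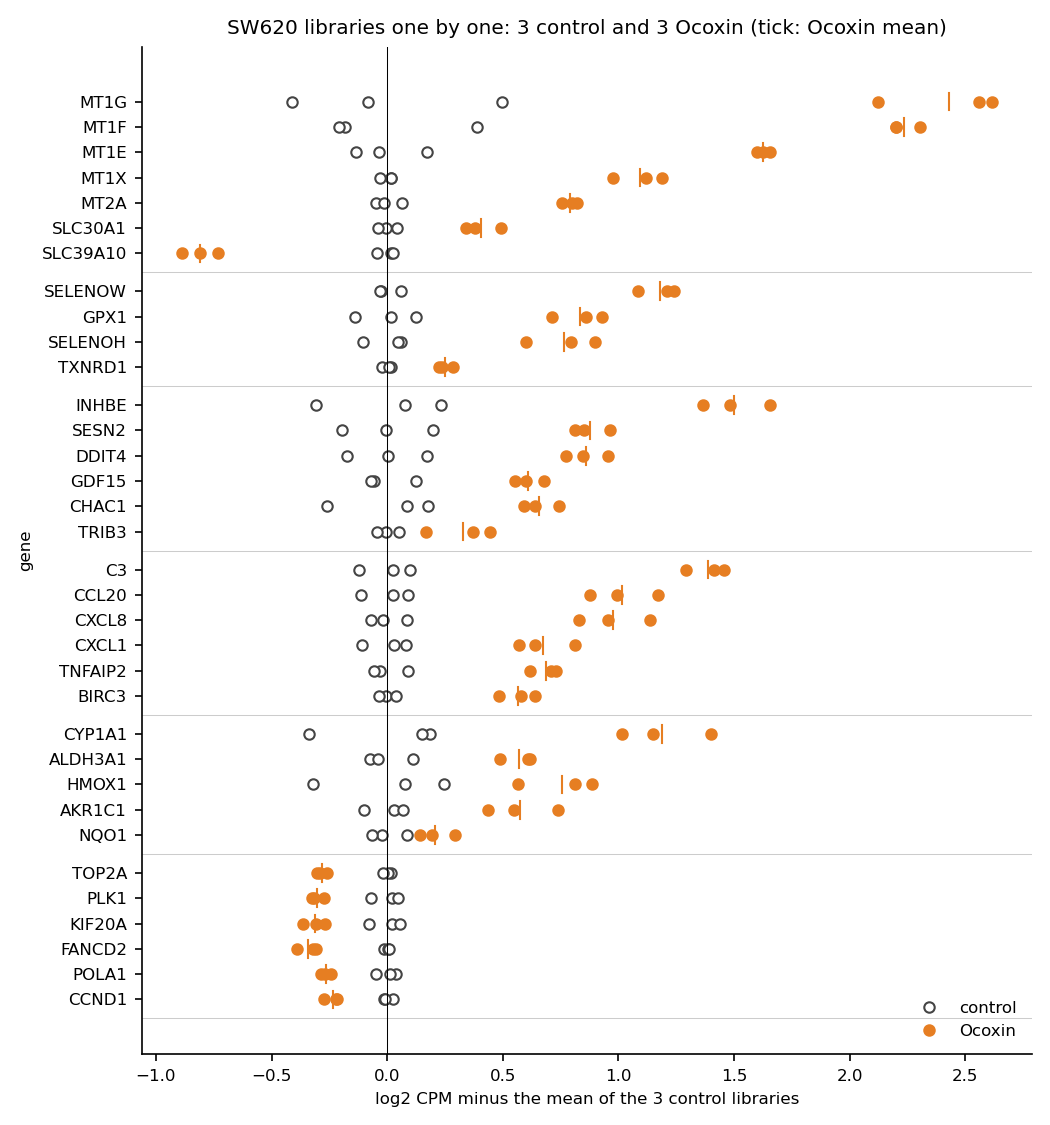
Log2 CPM of genes of the main groups in each of the 6 SW620 libraries, relative to the mean of the 3 control libraries, with open points for control, filled points for Ocoxin and a tick at the Ocoxin mean. The groups are apart for each gene drawn, but all were picked from the 451 altered genes, none of which had overlapping groups. Log2 fold changes include 2.39 for MT1G, -0.81 for SLC39A10 and -0.31 for PLK1.

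Selenoproteins, a list formed after the values were seen, held the gene with the smallest adjusted p of the whole comparison. Selenoproteins carry selenocysteine in their active sites, and many of them reduce peroxides or disulfides. SELENOW (chromosome 19, 47778572 to 47784686), a small thioredoxin-like protein, was at 61.9, 61.7 and 65.8 CPM in control and at 134, 149 and 146 CPM with Ocoxin. That is 2.26-fold (log2 fold change 1.18 ± 0.0553, edgeR adjusted p = 2.09e-11), with no overlap between groups, as for every altered gene. GPX1, the cytosolic glutathione peroxidase, rose 1.78-fold, from 81.5, 90.8 and 97.8 CPM to 147, 171 and 163 CPM (edgeR adjusted p = 1.78e-06). Its processed pseudogene GPX1P1, whose near-identical sequence may share its reads, rose by 0.84 on the log2 scale (edgeR adjusted p = 0.000181). SELENOH rose 1.7-fold, from 39.8 ± 2.43 to 67.8 ± 7 CPM (edgeR adjusted p = 2.61e-06). TXNRD1, thioredoxin reductase, rose 1.19-fold from 234 ± 3.49 to 278 ± 6.04 CPM (edgeR adjusted p = 0.00441). These 4 were the altered members of the 21 tested selenoproteins, 18 of which had a positive log2 fold change (median 0.14), and each of the 4 was altered in all 6 fits without 1 library. GPX2 (log2 fold change 0.02, edgeR adjusted p = 0.891), GPX4 (0.14, 0.262) and SELENOS (-0.05, 0.829) did not pass. The list for the synthesis and insertion of selenocysteine, which also holds the receptor LRP8, had 8 genes. Of these 0 were altered by edgeR and 0 by DESeq2, with 1 at an unadjusted p under 0.05, and 1 fell without control replicate 3. The lowest edgeR adjusted p-values were those of LRP8 (0.26) and SECISBP2 (0.318).

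The integrated stress response is the programme in which phosphorylation of the initiation factor eIF2 slows translation in general while the transcription factor ATF4 is made, which then induces stress effectors and genes for amino acid supply. In SW620, 9 of 29 tested genes of the list rose and 0 fell, with a median log2 fold change of 0.19. INHBE, an activin subunit induced by stress, rose 2.79-fold, from 1.85, 2.69 and 2.42 CPM to 5.91, 6.4 and 7.21 CPM (edgeR adjusted p = 1.74e-05). SESN2, which restrains mTORC1 when leucine is short, rose 1.83-fold, from 6.12, 5.32 and 4.66 CPM to 9.37, 10.4 and 9.62 CPM (edgeR adjusted p = 0.000489). DDIT4, another mTORC1 inhibitor, rose 1.8-fold (0.0018), and the stress cytokine GDF15 rose 1.52-fold, from 25.7 ± 1.94 to 39.2 ± 1.68 CPM (edgeR adjusted p = 3.53e-05). ADM2, a secreted peptide of the adrenomedullin family, rose 1.85-fold from 2.76 ± 0.145 to 5.12 ± 0.854 CPM (edgeR adjusted p = 0.00582). CHAC1, which breaks down glutathione, rose 1.56-fold from 4.18, 5.32 and 5.66 CPM to 7.81, 7.55 and 8.39 CPM (edgeR adjusted p = 0.0116). TRIB3, a pseudokinase, rose 1.26-fold, from 87.5 ± 2.99 to 110.0 ± 10.6 CPM (edgeR adjusted p = 0.00666). The remaining members were the transcription factor CEBPB (log2 fold change 0.52) and NIBAN1, which had 6, 0 and 0 counts in control and 14, 30 and 24 counts with Ocoxin. ADM2 lost its call without Ocoxin replicate 2 (edgeR adjusted p = 0.0695), CHAC1 without Ocoxin replicate 2 (0.0502) and control replicate 1 (0.0887), and TRIB3 without Ocoxin replicate 2 (0.0699) and control replicate 2 (0.052). Over the list, 4 members rose without Ocoxin replicate 2 and 7 to 11 in the other 5 fits of this kind.

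The mRNA of ATF4 itself differed little, with 404 ± 15.4 CPM in control and 406 ± 9.34 CPM with Ocoxin (SD, n = 3; log2 fold change 0.01 ± 0.0463, edgeR adjusted p = 0.958), though ATF4 is known to be regulated mostly in translation. DDIT3, the pro-apoptotic factor CHOP, had a log2 fold change of 0.19 ± 0.101 (edgeR adjusted p = 0.362). Few of the supply genes that ATF4 is known to induce passed the test, and their difference from the effectors was not tested. Among 20 genes of serine, proline and asparagine synthesis 0 rose and 1 fell (MTHFD1L, a fold of 0.865, edgeR adjusted p = 0.0248), and ASNS, asparagine synthetase, had a log2 fold change of 0.24 ± 0.0705 (edgeR adjusted p = 0.0711) and passed in 6 of 20 alternatives. Of these 20 genes 7 had an unadjusted p under 0.05. Of 19 tested amino acid transporters 0 rose and 1 fell, the arginine and lysine transporter SLC7A1 (a fold of 0.864, edgeR adjusted p = 0.0413), and SLC7A6 stood at -0.19 ± 0.0532 (0.0592). Cytosolic tRNA synthetases, 24 genes, had a median log2 fold change of -0.08, with 21 negative and only VARS1 (valine) altered, a fold of 0.818 from 151 ± 4.08 to 124 ± 4.86 CPM (edgeR adjusted p = 0.00276). VARS1 was altered in all 6 fits without 1 library, whereas MTHFD1L was altered in 2 of them and SLC7A1 in 1. The unfolded protein response of the endoplasmic reticulum, which the study relates to the integrated stress response, raises chaperones among other genes. Here 0 of 32 ER chaperones and folding enzymes were altered by edgeR (2 by DESeq2, both lower, and 4 at an unadjusted p under 0.05). Chaperones are only a part of that response, and the study also assigns ADM2, CHAC1, SESN2 and TRIB3, given above, to it. HSPA5, the chaperone BiP, was at 644, 623 and 682 CPM in control and 575, 584 and 589.8 CPM with Ocoxin (log2 fold change -0.16 ± 0.0457, edgeR adjusted p = 0.0742), and calreticulin CALR had a log2 fold change of -0.15 (0.0685). Among 21 tested heat shock proteins HSP90AB1 alone was altered, a fold of 0.882 (edgeR adjusted p = 0.0201), and it kept that call in 1 of the 6 fits without 1 library.

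**Figure D3:**
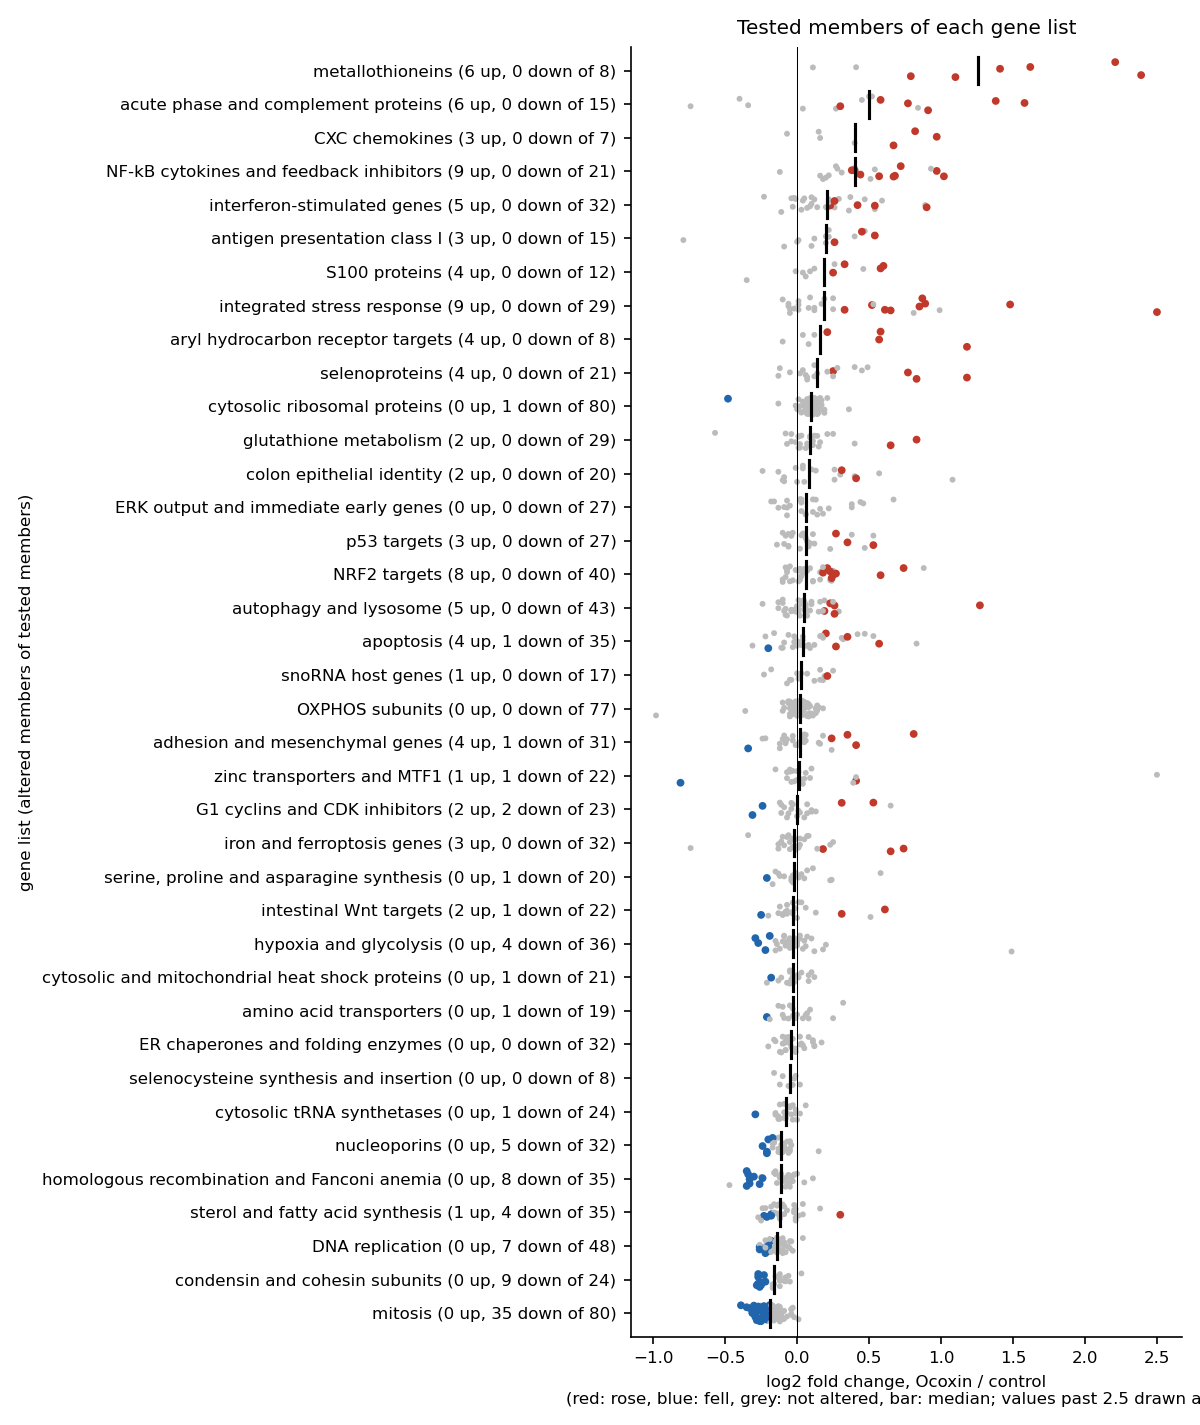
Log2 fold change of each tested member of the gene lists in SW620, with red and blue for members that rose or fell, grey for the others and a black bar at the median. Metallothioneins have the highest median (1.26) and mitosis genes the lowest (-0.19), where 79 of 80 members lie below 0.

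NRF2 is the transcription factor that answers electrophiles and oxidants through antioxidant response elements, and it drives enzymes of detoxification, thioredoxin and glutathione metabolism. Of 40 tested NRF2 targets 8 rose and 0 fell, most of them by little, with a median log2 fold change of 0.06. HMOX1, heme oxygenase, rose 1.67-fold from 2.92, 4.32 and 3.85 CPM to 6.75, 5.4 and 6.41 CPM (edgeR adjusted p = 0.0143). AKR1C1, an aldo-keto reductase with close paralogs, rose 1.49-fold, from 11.2 ± 0.687 to 16.7 ± 1.81 CPM (edgeR adjusted p = 0.00259), and its paralog AKR1C3 rose 1.21-fold (0.0162). NQO1, a quinone reductase expressed at 499 to 554 CPM in control, reached 575 to 639 CPM with Ocoxin, 1.16-fold (edgeR adjusted p = 0.0282). SQSTM1, the autophagy receptor p62, rose 1.17-fold (0.0149), TXNRD1 is given above, and the epoxide hydrolase EPHX1 and ferritin light chain FTL completed the 8. The cystine transporter SLC7A11 (log2 fold change 0.25 ± 0.0919, edgeR adjusted p = 0.17) and GCLM, a subunit of the enzyme that makes the glutathione precursor (0.03 ± 0.0665, 0.871), did not pass. Without control replicate 1, control replicate 2 or Ocoxin replicate 2, the number of NRF2 targets that rose was 2, 3 and 3, and it was 5 to 8 in the other fits. HMOX1 lost its call without control replicate 1 (edgeR adjusted p = 0.1) while NQO1 lost it in 4 such fits (highest adjusted p 0.187, when control replicate 2 was dropped). A core element, TGACNNNGC on either strand, was found in 1 of 7 promoters of these altered genes, that of TXNRD1 (first bases 99 and 8 bases before the start), in 7 of 24 promoters of NRF2 targets that were not altered (29.2%) and in 15.1% of the promoters of tested genes.
TXNRD1, chr12:104215679-104215778, plus strand, with the match that lies wholly in these 100 bases before the start at its left end in capitals: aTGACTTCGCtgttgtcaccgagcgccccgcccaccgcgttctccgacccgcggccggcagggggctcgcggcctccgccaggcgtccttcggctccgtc
This window is shown because TXNRD1 was the only altered NRF2 target whose promoter held the letters of the element.

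The aryl hydrocarbon receptor senses flavonoids, indoles and planar aromatic compounds and induces phase I enzymes. Of its 8 tested targets 4 rose and 0 fell. CYP1A1, its classical target, rose 2.27-fold, from 3.56, 2.48 and 3.48 CPM to 8.27, 6.95 and 6.33 CPM (edgeR adjusted p = 0.000247). ALDH3A1, an aldehyde dehydrogenase, rose 1.49-fold from 46 ± 3.19 to 68.4 ± 3.38 CPM (edgeR adjusted p = 1.73e-05), and both were altered in all 6 fits without 1 library. CYP1B1 rose 1.5-fold from 3.79 ± 0.416 to 5.67 ± 0.22 CPM (edgeR adjusted p = 0.0342), a call that 1 of those 6 fits repeated, and NQO1 was the fourth. The receptor's own repressor AHRR had a log2 fold change of 0.12 ± 0.0524 (edgeR adjusted p = 0.263) and TIPARP of 0.08 (0.408). Iron and ferroptosis genes held 3 altered members of 32, HMOX1, CHAC1 and FTL (1.14-fold, edgeR adjusted p = 0.0475), all of them higher. Glutathione metabolism held 2 of 29, GPX1 and CHAC1, and 23 of the 29 had a positive log2 fold change with a median of 0.09.

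A second set of large rises lay in inflammatory genes. NF-kB is the transcription factor of inflammatory signalling, and in colon epithelium it drives chemokines as well as the inhibitors that end its own activity. Of 21 tested NF-kB cytokines and feedback inhibitors 9 rose and 0 fell, with a median log2 fold change of 0.40. CCL20, which attracts CCR6-bearing lymphocytes and dendritic cells, rose 2.02-fold, from 22, 24.2 and 25.3 CPM to 43.7, 47.4 and 53.6 CPM (edgeR adjusted p = 6.79e-08). CXCL8, interleukin 8, rose 1.96-fold from 12.9, 14.4 and 13.4 CPM to 24.1, 26.3 and 29.8 CPM (edgeR adjusted p = 7.37e-07). CXCL1, another neutrophil chemokine, rose 1.59-fold from 26.5 ± 1.79 to 42.3 ± 3.68 CPM (edgeR adjusted p = 1.73e-05). The treated libraries were above the control libraries for each of these chemokines, without overlap, as for every altered gene that rose. TNFAIP2 rose 1.61-fold, from 54.5 ± 2.98 to 87.5 ± 3.61 CPM (edgeR adjusted p = 3.11e-07). BIRC3, the inhibitor of apoptosis cIAP2, rose 1.48-fold from 23.3 ± 0.561 to 34.5 ± 1.87 CPM (edgeR adjusted p = 6.8e-05). LTB, lymphotoxin beta, rose 1.65-fold from 2.87 ± 0.199 to 4.74 ± 0.241 CPM (edgeR adjusted p = 0.0151). Lower in the order were the feedback inhibitor TNFAIP3 (log2 fold change 0.40), the NF-kB subunit RELB (0.44) and IL23A (0.38), and the inhibitor NFKBIA, at 0.20 ± 0.0618, did not pass (edgeR adjusted p = 0.0889). IL1A, IL1B, IL6 and TNF were below the filter. The number of altered members was 5 without control replicate 2, 6 without control replicate 1 or Ocoxin replicate 2, and 9 or 10 in the other 3 fits, and CCL20, CXCL8, CXCL1, TNFAIP2 and BIRC3 were altered in all 6.

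Complement and acute phase genes were listed after their values were seen. C3 (chromosome 19, 6677704 to 6730562), the central complement protein, rose 2.61-fold, from 12, 13.3 and 14 CPM to 35.9, 32 and 34.8 CPM (log2 fold change 1.38 ± 0.0805, edgeR adjusted p = 4.91e-10), and was altered in all 6 fits without 1 library. Of the 15 tested members of that list 6 rose and 0 fell, and 15 others were below the filter. LRG1 rose 1.7-fold (edgeR adjusted p = 0.00621), AMBP 1.88-fold (0.011), ALB 1.49-fold (0.0275) and SERPINA1 1.23-fold, from 155 ± 18.4 to 192 ± 7.29 CPM (0.0312). LCN2, lipocalin 2, rose 2.99-fold from 0.455 ± 0.0914 to 1.38 ± 0.603 CPM (edgeR adjusted p = 0.0301). Without Ocoxin replicate 2 only C3 of these 6 was altered. CXCL6, a further neutrophil chemokine, rose 1.76-fold from 21.2 ± 1.46 to 37.4 ± 5.2 CPM (edgeR adjusted p = 2.67e-05). CSF3, granulocyte colony stimulating factor, rose 3.14-fold, from 0.745, 0.643 and 0.497 CPM to 2.06, 2.44 and 1.43 CPM (edgeR adjusted p = 0.00374), and lost its call without Ocoxin replicate 2 (0.0532).

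Some interferon-stimulated genes and genes of peptide presentation on HLA class I rose as well. Of 32 tested interferon-stimulated genes 5 rose and 0 fell, and 26 had a positive log2 fold change (median 0.21). BST2, tetherin, rose 1.86-fold from 2.46, 2.86 and 3.05 CPM to 4.69, 5.33 and 5.62 CPM (edgeR adjusted p = 0.00371). HLA-B, a class I heavy chain whose reads can be shared with its paralogs, rose 1.45-fold from 24.2 ± 1.66 to 35.2 ± 2.88 CPM (edgeR adjusted p = 0.000435). IFI6 rose 1.34-fold (edgeR adjusted p = 0.00346), B2M, the class I light chain, 1.2-fold from 168 ± 9.25 to 201 ± 13.3 CPM (0.0132), and IFITM3 1.17-fold (0.0302). Of 15 tested class I genes, listed after the values were seen, 3 rose and 0 fell, and 3 had a negative log2 fold change. MR1, the member beside HLA-B and B2M, which presents vitamin B metabolites to MAIT cells, rose 1.37-fold from 18.2 ± 1.05 to 24.8 ± 0.525 CPM (edgeR adjusted p = 0.00247). The count of the interferon list was 3 to 5 in 5 of the fits without 1 library and 10 without control replicate 3. With all 18 libraries of the count table in 1 fit, B2M alone of these 5 interferon-stimulated genes was altered.

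**Figure D4:**
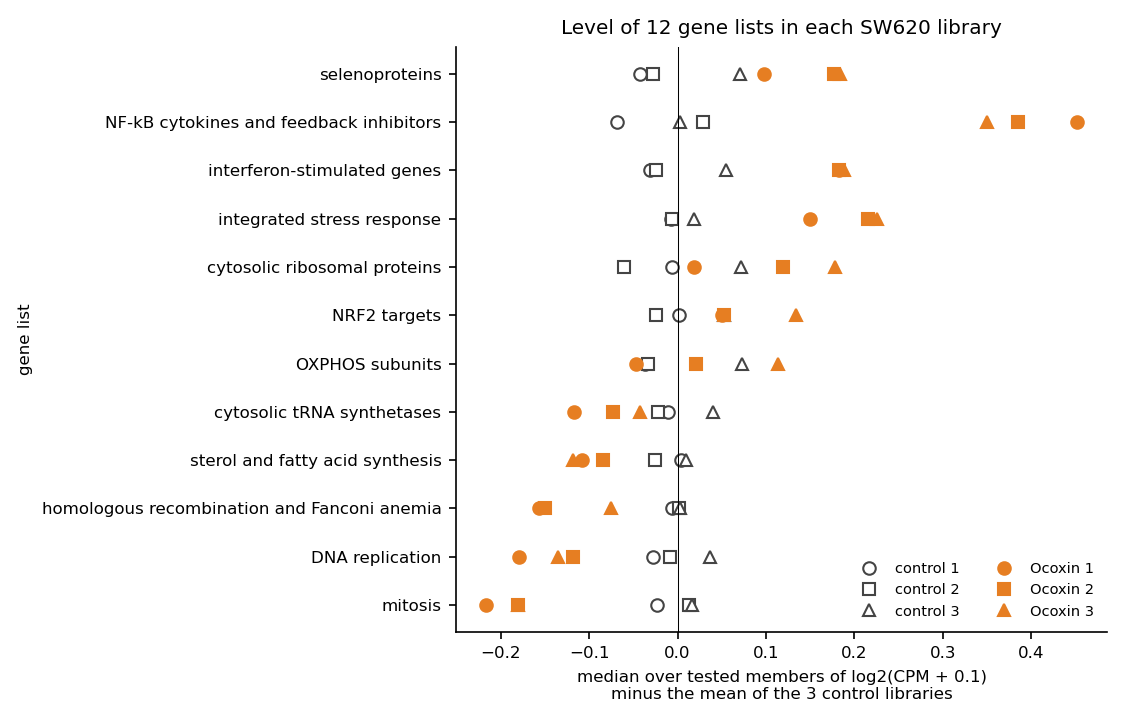
Median over the tested members of some of the gene lists of log2(CPM + 0.1) in each SW620 library, relative to the mean of the 3 control libraries, with open symbols for control and filled symbols for Ocoxin. The NF-kB list lies at 0.35 to 0.452 in the Ocoxin libraries and the mitosis list at -0.217 to -0.18. The groups overlap for the ribosomal, NRF2 and OXPHOS lists.

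Genes of the cell cycle were a part of the downward response, with 35 mitosis genes among the 192 genes that fell. Mitosis genes encode the kinases, kinesins, checkpoint proteins and condensins that divide the chromosomes, and they are transcribed late in the cycle through the cell cycle homology region (CHR), an element bound by the DREAM and B-MYB-FOXM1 complexes. Of 80 mitosis genes, all tested, 0 rose and 35 fell, and 79 had a negative log2 fold change with a median of -0.19, a fold of 0.874. TOP2A, which untangles sister chromatids, was at 881, 873 and 862 CPM in control and 714, 707 and 728 CPM with Ocoxin, a fold of 0.821 (log2 fold change -0.28 ± 0.0423, edgeR adjusted p = 0.000711). PLK1, a kinase of mitotic entry and exit, went from 153, 163 and 166 CPM to 129, 133 and 128 CPM, a fold of 0.809 (edgeR adjusted p = 0.00187). KIF20A, a kinesin of cytokinesis, had a fold of 0.806 (edgeR adjusted p = 0.00226) and KIF18B, which shortens astral microtubules, of 0.762 (0.000711). The condensin subunit NCAPD2 had a fold of 0.824 (0.00226), and ANLN, anillin of the cleavage furrow, of 0.829 (0.00247). Each of these 6 genes was altered in all 6 fits without 1 library. ESPL1, separase, fell from 181 ± 12.3 to 141 ± 12.8 CPM (a fold of 0.784, edgeR adjusted p = 0.00775) and lost its call without Ocoxin replicate 2 (0.0772). Other members that fell included AURKB (log2 fold change -0.30), BUB1B (-0.27), CDC20 (-0.26) and FOXM1 (-0.18).

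The proliferation marker MKI67 did not pass. Control replicate 3, at 397 CPM, lay within the Ocoxin range of 379 to 435 CPM and away from the other controls, at 567 and 574 CPM (log2 fold change -0.33 ± 0.173, edgeR adjusted p = 0.47). CDK1 had a log2 fold change of -0.07 (edgeR adjusted p = 0.582) and CCNB1 of -0.15 (0.119). The number of mitosis genes that fell was 10 when either control replicate 2 or Ocoxin replicate 2 was dropped and 16 when control replicate 1 was, against 27 to 37 in the other fits, 39 with DESeq2 and 48 with length and GC trends removed. The CHR core TTTGAA on either strand was found in 25 of 32 promoters of mitosis genes that fell (78.1%), in 19 of 35 promoters of mitosis genes that were not altered (54.3%) and in 9.8% of the promoters of tested genes. The 100 bases before the start of PLK1 and ANLN are shown because they were the promoters of the 6 genes above with a match in that stretch, with matches in capitals.
PLK1, chr16:23678789-23678888, plus strand: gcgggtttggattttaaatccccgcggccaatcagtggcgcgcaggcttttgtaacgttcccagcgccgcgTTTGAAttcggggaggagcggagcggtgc
ANLN, chr7:36389762-36389861, plus strand: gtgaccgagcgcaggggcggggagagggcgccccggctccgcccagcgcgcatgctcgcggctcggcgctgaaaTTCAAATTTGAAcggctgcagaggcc
The match of PLK1 starts 29 bases before the start, and ANLN holds 1 match on each strand, 26 and 20 bases before the start.

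Genes of DNA synthesis shifted less. Of 48 DNA replication genes 0 rose and 7 fell, with 47 negative and a median log2 fold change of -0.14. POLA1, the catalytic subunit of the priming polymerase, fell from 199 ± 6.35 to 166 ± 2.77 CPM (a fold of 0.834, edgeR adjusted p = 0.00391). Thymidylate synthase TYMS had a fold of 0.836 (0.0107), the polymerase delta subunit POLD3 of 0.854 (0.0146) and the ribonucleotide reductase subunit RRM1 of 0.871 (0.0207). The helicase subunits MCM5 (a fold of 0.869, edgeR adjusted p = 0.0218) and MCM2, with the loading factor MCM10 (0.859, 0.03), completed the 7. The count for the list was 0 when Ocoxin replicate 2 was dropped, 1 when control replicate 1 was and 2 when control replicate 2 was, against 5 to 8 in the other fits, 11 with DESeq2 and 18 with length and GC trends removed. Homologous recombination and Fanconi anemia genes, which repair broken and crosslinked DNA, gave 8 falls and 0 rises of 35, with a median of -0.11. FANCD2, at the centre of the Fanconi pathway, was at 86.5, 87.4 and 87.8 CPM in control and 69.8, 70.4 and 66.5 CPM with Ocoxin, a fold of 0.79 (edgeR adjusted p = 0.00103), and was altered in all 6 fits without 1 library. Its partner FANCI fell by a fold of 0.834 (edgeR adjusted p = 0.00346), the helicase BRIP1 of 0.814 (0.00294), the recombination motor protein RAD54L of 0.798 (0.0098) and the strand-exchange factor XRCC2 of 0.797 (0.01). FANCB (a fold of 0.784, edgeR adjusted p = 0.0248), FANCA and FANCC were the others. The count was 2 when Ocoxin replicate 2 was dropped, 3 when either control replicate 1 or 2 was, and 6 to 8 otherwise. An E2F core, TTTCCCGC or TTTGGCGC on either strand, was found in 2 of 5 promoters of the replication genes that fell (40.0%) and 15 of 36 of those not altered (41.7%), in 3 of 7 of the repair genes that fell and 0 of 24 of those not altered, and in 3.6% of the promoters of tested genes.

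**Figure D5:**
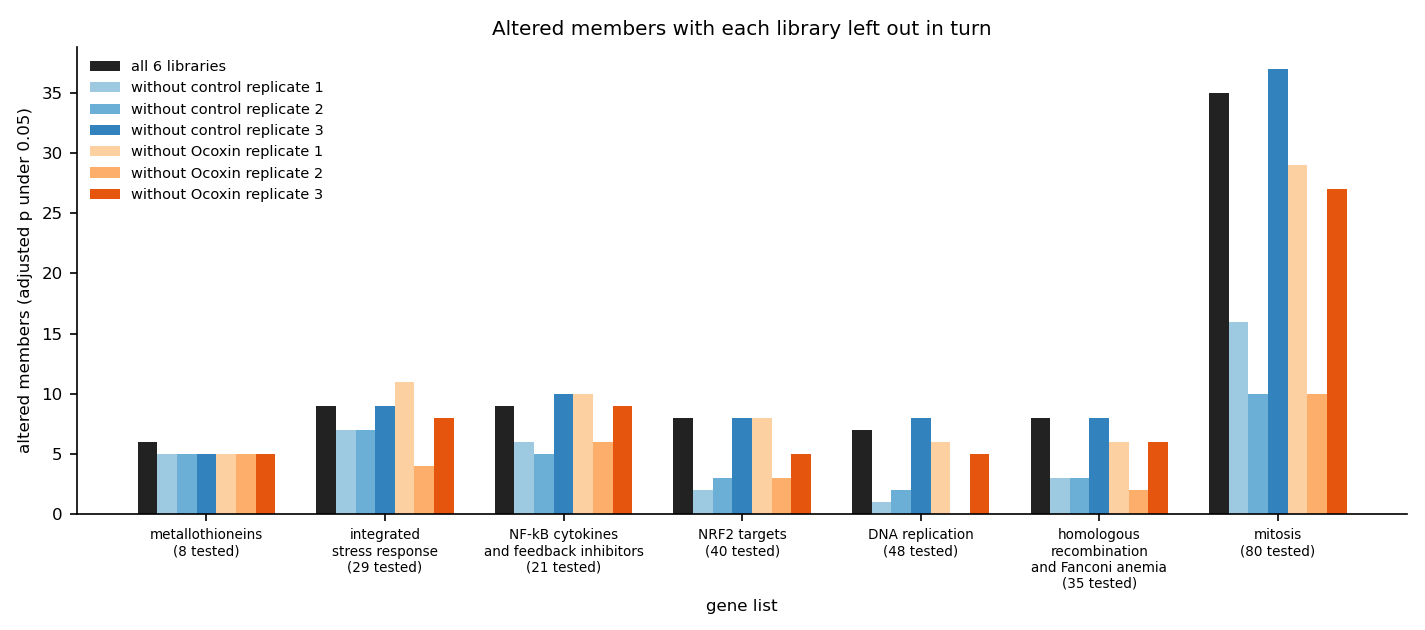
Number of altered members (bars, from 0) of the main gene lists in SW620 with all 6 libraries and with each library left out in turn. Metallothioneins keep 5 or 6 altered members in each fit, whereas DNA replication ranges from 0 to 8 and mitosis from 10 to 37.

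Among 23 cyclins and CDK inhibitors of G1, 2 fell and 2 rose. Cyclin D1 (CCND1), which drives G1 entry, was at 371, 382 and 372 CPM in control and 322, 323 and 310.5 CPM with Ocoxin, a fold of 0.849 (edgeR adjusted p = 0.00585), and the pocket protein RBL1 had a fold of 0.809 (0.00867). CDKN1A, the CDK inhibitor p21, rose 1.45-fold from 6.87, 6.54 and 6.65 CPM to 9.37, 10.7 and 8.95 CPM (edgeR adjusted p = 0.0137), and CDKN2B, p15, 1.24-fold (0.0241). SW620 carries mutant p53, and of 27 tested p53 targets 3 rose and 0 fell, CDKN1A, TP53I3 (1.21-fold, edgeR adjusted p = 0.0304) and PMAIP1, the BH3 protein NOXA (1.27-fold, 0.0485). Without control replicate 1, control replicate 2 or Ocoxin replicate 2, 0 of these 3 p53 targets was altered. Of 35 apoptosis genes 4 rose, the inhibitors BIRC3 and BIRC2 (1.15-fold, edgeR adjusted p = 0.0445) and the promoters of death PMAIP1 and BID (1.2-fold, 0.0459), and 1 fell, caspase 2 (CASP2, a fold of 0.869, 0.0257). The number that rose was 1 in 4 of the 6 fits without 1 library, and BIRC2, BID, PMAIP1 and CASP2 were each altered in 2 of them.

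In sterol and fatty acid synthesis 4 of 35 genes fell and 1 rose, with 30 negative and a median log2 fold change of -0.12. The transcription factor SREBF1 fell from 187 ± 6.58 to 159 ± 13.7 CPM (a fold of 0.852, edgeR adjusted p = 0.0323), FADS1, a desaturase, had a fold of 0.881 (0.03) and HMGCS1, of the mevalonate pathway, of 0.883 (0.0472). TM7SF2, a sterol reductase, rose 1.23-fold (edgeR adjusted p = 0.0146). Each of these calls was lost in at least 2 of the 6 fits without 1 library. In hypoxia and glycolysis 4 of 36 fell and 0 rose: the glucose transporter SLC2A3 (a fold of 0.832, edgeR adjusted p = 0.0057), hexokinase HK2 (0.859, 0.0244), carbonic anhydrase CA9 (0.82, 0.0373) and GPI (0.879, 0.0404). The hypoxia count was 0 when control replicate 2 or Ocoxin replicate 2 was dropped and 1 when control replicate 1 or Ocoxin replicate 3 was, and none of the 4 was altered with all 18 libraries in 1 fit. Of 77 nuclear OXPHOS subunits 0 passed in edgeR and DESeq2 and 6 had an unadjusted p under 0.05 (lowest edgeR adjusted p 0.222, for COX5B), with a median of 0.02, and the 37 mitochondrial genes had 0 counts in these libraries. Of 80 cytosolic ribosomal proteins 76 had a positive log2 fold change (median 0.10), and 33 had an unadjusted edgeR p under 0.05. At the adjusted threshold 0 rose and 1 fell, RPL36A (a fold of 0.719, edgeR adjusted p = 0.0167), whose many near-identical copies make its counts uncertain. That list depended on single libraries, with 16 rises without Ocoxin replicate 1 and 10 without control replicate 3. Autophagy and lysosome genes gave 5 rises and 0 falls of 43. MAP1LC3A, an LC3 protein of the autophagosome membrane, rose 2.41-fold from 1.04, 0.759 and 0.715 CPM to 2.06, 1.89 and 2.1 CPM (edgeR adjusted p = 0.0103), the receptor OPTN 1.2-fold (0.00947), the protease ATG4A 1.2-fold (0.0459) and cathepsin B (CTSB) 1.14-fold (0.05), and SQSTM1 completed the list. This count was 0 when control replicate 2 was dropped, 1 when control replicate 1 was and 2 when Ocoxin replicate 2 was, and ATG4A was altered in 0 of the 6 fits.

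Altered members made up 10.0% of the tested colon epithelial genes, 13.6% of the intestinal Wnt targets and 16.1% of the adhesion and mesenchymal genes. Over all tested genes the share was 2.55%, and a change of cell identity was not tested. Of 20 tested colon epithelial genes 2 rose, the mucin MUC13 (1.33-fold, from 41.3, 36 and 40.9 CPM to 55.1, 47 and 54.9 CPM, edgeR adjusted p = 0.00385) and the trefoil factor TFF3 (1.24-fold, 0.00478), and 0 fell. Of 22 intestinal Wnt targets LEF1, a Wnt transcription factor, rose 1.53-fold from 7.83 ± 0.459 to 12 ± 1.3 CPM (edgeR adjusted p = 0.00398) and CD44, a hyaluronan receptor, 1.24-fold (0.00916), while EPHB3, a receptor of crypt positioning, fell (a fold of 0.84, 0.0181). The stem cell marker LGR5 had a log2 fold change of -0.03 (edgeR adjusted p = 0.862) and MYC of 0.06 (0.586). Of 31 adhesion and mesenchymal genes 4 rose and 1 fell. MMP7, matrilysin, rose 1.75-fold from 4.4, 4.32 and 5.56 CPM to 7.58, 7.84 and 9.66 CPM (edgeR adjusted p = 0.00296), and urokinase PLAU 1.27-fold (0.0376), and thrombospondin THBS1 fell by a fold of 0.789 (0.00385). In this list 1 gene rose and 0 fell when Ocoxin replicate 2 was dropped, 1 rose when control replicate 1 was, PLAU was altered in 2 of the 6 fits, and MMP7 lost its call with all 18 libraries in 1 fit. Of 27 immediate early and ERK output genes 0 passed in edgeR and DESeq2 and 7 had an unadjusted p under 0.05, the nearest being DUSP5 (log2 fold change 0.38 ± 0.114, edgeR adjusted p = 0.08), and of 17 snoRNA host genes SNHG29 rose 1.15-fold (0.0413).

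Some genes known from other cell types also rose. LYZ, lysozyme, was at 9.13, 9.35 and 9.7 CPM in control and 15, 14.5 and 14.7 CPM with Ocoxin, 1.57-fold (edgeR adjusted p = 0.000435), while the summed level of the 9 leukocyte markers was 85.6 to 93.7 CPM in control and 99.8 to 103 CPM with Ocoxin, and PTPRC and MS4A1 had 0 to 2 counts. The keratin KRT5 rose 1.42-fold from 19.3 ± 1.21 to 27.4 ± 0.89 CPM (edgeR adjusted p = 0.000711) and S100A2 1.51-fold from 10.1 ± 0.417 to 15.3 ± 0.583 CPM (0.000999). The 8 basal and squamous markers together gave 49.9 to 53.8 CPM in control and 59.5 to 69.4 CPM with Ocoxin, and TP63, KRT14 and DSG3 had at most 2 counts. The part of such markers in the other results was not tested. None of the 4 tested fibroblast, 2 endothelial and 6 prostate markers was altered by edgeR (0, 1 and 3 had an unadjusted p under 0.05, and 0 passed with DESeq2), with summed levels that overlapped between the groups (for the endothelial list 4.89 to 5.63 CPM against 5.42 to 7.95 CPM). The groups did not overlap for 4 of the 6 prostate markers, and for 20.6% of all tested genes. These markers went both ways. KLK2, at 1.13 CPM in control and 0.646 CPM with Ocoxin, had a fold of 0.569 (edgeR adjusted p = 0.219), and STEAP2 of 1.13 (0.276). Over the 6 markers 2 had a positive and 4 a negative log2 fold change.

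The largest changes among altered genes with a mean of at least 1 CPM had diverse roles. Beyond the metallothioneins, INHBE, C3, CSF3 and MAP1LC3A, the 10 largest rises among altered genes of at least 1 CPM included SRGN, the secretory granule proteoglycan serglycin, which rose 3.65-fold from 0.389, 0.351 and 0.622 CPM to 1.4, 1.55 and 2.06 CPM (edgeR adjusted p = 0.00366). LAMP3, a lysosomal membrane protein, rose 2.45-fold (edgeR adjusted p = 0.0183), and ASB2, a ubiquitin ligase subunit, 2.36-fold from 2.28 ± 0.428 to 5.38 ± 1.49 CPM (0.00226). Among altered genes with a mean of at least 1 CPM, SLC39A10 fell most. Next were the antisense transcripts FBXL19-AS1 (a fold of 0.628, edgeR adjusted p = 0.0207) and HOXA10-AS (0.634, 0.0459). Their counts, made without strand, may hold reads of the opposite gene. The opioid receptor gene OPRD1 fell from 36.6, 33 and 31.9 CPM to 25.9, 22.2 and 20.9 CPM (a fold of 0.681, edgeR adjusted p = 0.000711), and was altered in all 6 fits without 1 library. KLHL11, an adaptor of a ubiquitin ligase (a fold of 0.732, edgeR adjusted p = 0.0482), the coagulation factor F5 (0.742, 0.0339), the microtubule-severing KATNAL1 (0.754, 0.0296), an unnamed gene of chromosome 15 (ENSG00000187951, 0.757, 0.0451) and the DNA damage mediator MDC1 (0.759, 0.0146) followed with RPL36A. These last 6 and both antisense transcripts were altered in at most 3 of the 6 fits without 1 library.

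The 13 genes that the study singled out across its 4 cell lines were chosen with these libraries among others, so their calls are not independent evidence of their direction. Of the 13, all were altered in SW620, the zinc genes MT1F and SLC30A1, the stress genes TRIB3, SESN2, CHAC1 and ADM2 and the NRF2 targets TXNRD1, NQO1 and HMOX1 upwards and ESPL1, KIF20A, RAD54L and SLC39A10 downwards. MT1F, SESN2, SLC30A1, TXNRD1, KIF20A and SLC39A10 were altered in all 6 fits without 1 library, and RAD54L lost its call without control replicate 1 (edgeR adjusted p = 0.051) and control replicate 2 (0.0847). Over the 133 altered genes named by the rule for named genes or through the added lists, 50 were altered in all 6 such fits and 57 in at most 3.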

How the data were processed

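Total RNA was sequenced as stranded polyA libraries. The authors used fastp for trimming, STAR for alignment to hg38 and picard to remove duplicates, and counted primary alignments per gene with featureCounts 2.0.3, without strand and without joining read pairs, so 1 fragment mostly gave 2 counts. The deposited values are whole counts without normalization. Control and Ocoxin were told apart by the letters of the titles, since the labels give the dilution for controls too.

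Genes were filtered with filterByExpr and scaled with TMM, and the 3 Ocoxin libraries were compared with the 3 control libraries with the robust quasi-likelihood test of edgeR 4.0.16 (R 4.3.3), with Benjamini-Hochberg adjustment over all 17659 genes and a threshold of 0.05. CPM are TMM-scaled, fold changes are Ocoxin over control, errors of log2 fold changes are SE and of CPM are SD. The test was checked on simulated counts. DESeq2 1.42.0 was 1 of 23 alternatives. Reads shared by near-identical or overlapping genes make the values of such genes uncertain. The smallest p that permuting 3 against 3 can give for a single gene is 0.1.

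Members, gene lists and tests were chosen with earlier results of these data known, and 8 of the 43 lists (selenoproteins, selenocysteine synthesis, acute phase, condensin and cohesin, nucleoporins, S100, CXC chemokines and class I presentation) after the values of this comparison were seen. No test was run on a list. The text names the 10 altered genes with the largest rise and the 10 with the largest fall (mean of at least 1 CPM, no overlap between groups), up to 6 altered members of each list by adjusted p (the 2 lowest p-values where fewer than 2 members were altered) and the 13 genes of the study. Other genes named, such as ATF4, MKI67, GPX1P1, NIBAN1, PRSS1 and the further members of lists, were chosen after their values were seen. Promoter sequences are those of RefSeq, GRCh38.p14, which held an entry for 11685 tested genes. Some members of the lists are counted but not reported here by name.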

Additional observations from a re-analysis of the deposited data

How the results depend on the processing

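The number of altered genes, 451, was 734 without a filter on low counts, 143 at an adjusted p under 0.01, 104 with a fold change of at least 1.5 and 33 with one of at least 2. DESeq2 called 513 genes of 14234, and 414 of them were also altered in edgeR. Leaving out 1 library gave 121 (without Ocoxin replicate 2) to 782 genes (without control replicate 3). The share that rose, 57.4%, was 49.7% with DESeq2, 67.4% with all 18 libraries of the count table in 1 fit, 63.3% with at least 10 counts in every library, 64.0% with halved counts, 64.6% with upper-quartile scaling, 48.0% with a length trend removed and 38.6% with length and GC trends removed. It was 65.0% at an adjusted p under 0.01, 95.2% and 93.9% with both fold limits, and 45.3% (without control replicate 3) to 80.2% (without Ocoxin replicate 2) without 1 library. The cause of these shifts was not tested.

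With the replicate number as a block, 1925 genes were altered (44.9% rose), and 2183 (35.2%) with a length trend removed as well. Same-numbered libraries deviated from their group means with correlations of 0.117, -0.005 and 0.189, and libraries of unlike number with -0.198 to 0.103. These few values cannot settle whether the numbers pair the libraries, and the main fit took no pairing. The log2 fold change of PECAM1, an endothelial marker that was not altered (0.15), ranged from -0.024 without Ocoxin replicate 2 to 0.273 without Ocoxin replicate 1. Among the 154 genes chosen by the rule or through the added lists, for which the alternatives were run, no other gene turned its direction. Genes named beyond these, such as ATF4, MKI67 and CDK1, were not run.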

Other observations

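Further families were listed after their values were seen and are given as values, with no test of the list. Condensin and cohesin compact and tether chromosomes, and their list also holds SMC5 of a related complex. Of its 24 genes 9 fell and 0 rose, and 23 had a negative log2 fold change (median -0.16). SMC4 of condensin was at 234 CPM on average in control and 194 CPM with Ocoxin (a fold of 0.831, edgeR adjusted p = 0.00259), and the cohesin subunit SMC1A fell from 651 ± 25.7 to 540.2 ± 13.5 CPM (0.83, 0.00259). STAG1 of cohesin (a fold of 0.829, edgeR adjusted p = 0.00868), SMC5 (0.833, 0.00685) and NCAPH (0.84, 0.0098) fell as well. Without Ocoxin replicate 2, control replicate 1 or control replicate 2, 3, 4 and 4 members of the list were altered.

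Of 32 nucleoporins, which form the nuclear pore, 5 fell and 0 rose, and 31 had a negative log2 fold change (median -0.11): NUP93 (a fold of 0.845, edgeR adjusted p = 0.0107), NUP205 (0.863, 0.0119), NUP188 (0.867, 0.0295), NUP155 (0.872, 0.0295) and NUP160 (0.888, 0.0416). None of them was altered without control replicate 1, control replicate 2 or Ocoxin replicate 2.

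Of 12 tested S100 proteins, small calcium-binding proteins, 4 rose and 0 fell. S100P rose 1.49-fold, from 23.4 ± 2.05 to 34.9 ± 2.7 CPM (edgeR adjusted p = 0.000247), S100A2 is given above, and S100A3 (1.25-fold, 0.0218) and S100A11 (1.19-fold, 0.0139) followed. The count was 2 when control replicate 1, control replicate 2 or Ocoxin replicate 2 was dropped, and S100A2 lost its call with all 18 libraries in 1 fit.

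The trypsinogen gene PRSS1 (chromosome 7, 142749468 to 142763997), below 1 CPM, had 0 counts in each control library and 22, 22 and 20 counts in the Ocoxin libraries (edgeR adjusted p = 0.000138). Against a floor of 3 counts per control library (0.0972 CPM), its mean of 0.779 CPM with Ocoxin was at least 8.02-fold higher. Its paralogs may share its reads.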
